A study of Homo sapiens with 36 samples.

Results

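The TAL1, STIL and PDZK1IP1 domain is a stretch of chromosome 1 that holds 3 neighbouring genes read in the same direction. TAL1 (chr1:47216290-47232335), STIL (chr1:47250139-47314896) and PDZK1IP1 (chr1:47183582-47190036) all lie on the minus strand of hg38. A CUT&Tag peak was counted as a member where its summit lay in one of these 3 gene bodies or within 20 kb of one, and overlapping peaks of different libraries were merged into sites. The window so defined is 171315 bp long. It held 104 peaks that merged into 6 sites, of 17277 sites in the genome (0.0347%).

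TAL1 encodes a basic helix-loop-helix factor of blood stem cells and red cell precursors. It binds E-boxes as a dimer with an E protein such as TCF3 or TCF12, and the adaptors LMO2 and LDB1 join it to a GATA factor on DNA that often carries an E-box beside a GATA motif. STIL encodes a protein of centriole duplication, and PDZK1IP1 a small membrane protein. TAL1 is known for regulatory elements spread along the locus, among them stem cell elements just past the gene and a distal erythroid element beyond PDZK1IP1. Whether the sites described here are those elements was not tested.

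CUT&Tag uses an antibody to tether a transposase to chromatin, and the fragments it releases are sequenced. The cells were HUDEP-2, an immortalized human line of erythroid progenitors, grown with erythropoietin, stem cell factor, doxycycline and dexamethasone, and sorted for GFP after lentiviral infection. Of 36 libraries described, 28 in 7 groups of 4 had a peak list, and the 8 IgG libraries were not analysed here. With an antibody to GATA2, a zinc finger factor of blood progenitors, the groups were wild-type cells with empty vector and GATA2-low cells (genotype GATA2+/-) with empty vector, with HA-GATA2 or with HA-GATA2(T354M). With an antibody to the HA tag, the groups were GATA2-low cells with HA-GATA2, with HA-GATA2(T354M) or with empty vector. HA-GATA2(T354M) carries an amino acid exchange in a zinc finger of GATA2 that is known from families with inherited myeloid disease. The labels name neither clones nor separate cultures. Each p-value below therefore measures how these libraries vary, which can be technical variation. The antibody to GATA2 can also bind the cells' own GATA2, whereas the antibody to HA has no tagged target in empty-vector cells.

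Peak lists differed in length. They held 6555 to 9121 peaks in wild-type, 1823 to 3648 in GATA2-low empty-vector, 7064 to 12171 in HA-GATA2 and 2779 to 6311 in HA-GATA2(T354M) libraries with anti-GATA2. With anti-HA they held 1912 to 6065, 426 to 744 and 1 to 6 peaks for HA-GATA2, HA-GATA2(T354M) and empty vector. For replicate 1 of the empty-vector anti-GATA2 group of GATA2-low cells, the genotype label (wild-type) goes against the title, which was followed. This library had peaks at the same 3 sites of the domain as replicates 3 and 4 of its group.

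The 6 sites are named here by the distance in kb of their middle summit downstream of the first TAL1 start, with upstream as negative. The +53 site (chr1:47179189-47179663) covers the start of the non-coding gene LINC00853 and the high-coordinate boundary of the antisense gene CYP4A22-AS1. The +51 site (chr1:47180225-47182847) has its summit 2185 bp past the 3′ end of PDZK1IP1, and the +19 site (chr1:47213179-47213893) 2726 bp past the 3′ end of TAL1. The +7 site (chr1:47224531-47225208) lies inside TAL1. The promoter site (chr1:47231430-47232945) spans both annotated TAL1 starts, and the -7 site (chr1:47238939-47239938) lies 7060.5 bp upstream of the first start, between TAL1 and STIL. No summit in any library lay in the body or at the start of STIL or of PDZK1IP1. The last 94958 bp of the window, which hold all of STIL, had no site, and neither had 30331 bp between the +51 and +19 sites.

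**Figure D1:**
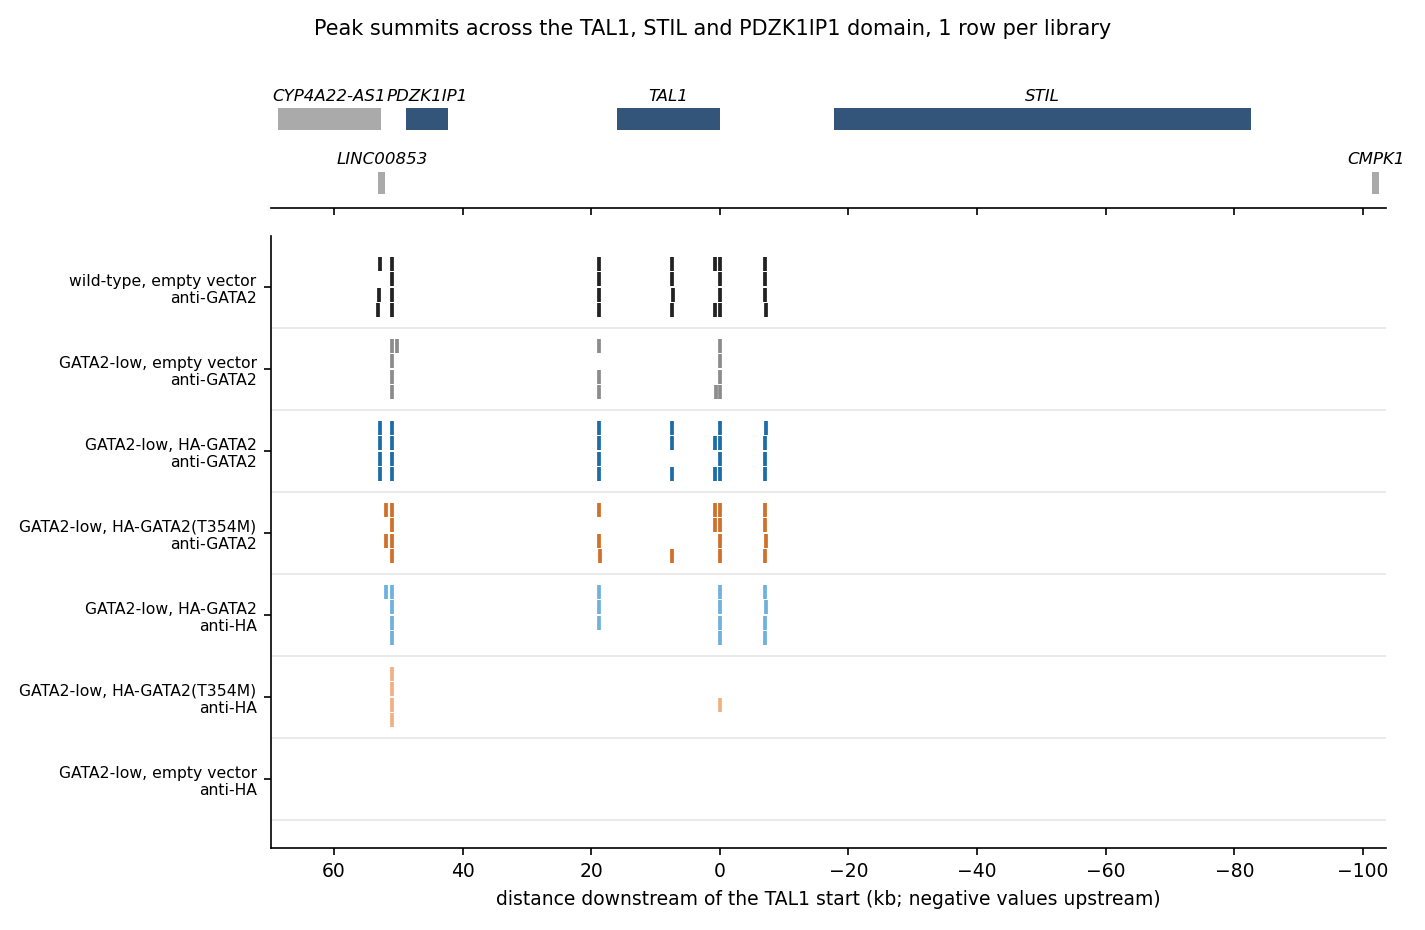
Summits of all 104 peaks, 1 row of marks per library within each of the 7 groups, against the distance downstream of the TAL1 start in kb, with gene bodies above (the 3 genes of the domain in blue). The +51 column is filled in all 24 libraries outside the empty-vector anti-HA group, and the STIL side is empty.

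The sequence upstream of the 3 genes' starts is shown because the TAL1 promoter is the only one of them under a peak. Each line gives the 250 bases before the annotated start, 5′ to 3′ on the gene's strand, from RefSeq (GRCh38.p14); capitals mark a match to AGATAA on either strand.
TAL1 first start (chr1:47232336-47232585): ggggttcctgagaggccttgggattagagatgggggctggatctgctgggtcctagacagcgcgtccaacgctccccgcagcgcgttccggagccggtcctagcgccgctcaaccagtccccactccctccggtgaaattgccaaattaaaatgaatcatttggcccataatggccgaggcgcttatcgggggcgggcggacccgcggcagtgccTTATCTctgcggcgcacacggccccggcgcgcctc
PDZK1IP1 (chr1:47190037-47190286): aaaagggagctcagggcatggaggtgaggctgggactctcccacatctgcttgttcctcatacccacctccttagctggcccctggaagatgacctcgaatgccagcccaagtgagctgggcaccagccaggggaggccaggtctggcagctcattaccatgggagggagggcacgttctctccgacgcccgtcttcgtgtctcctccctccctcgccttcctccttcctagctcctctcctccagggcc
STIL (chr1:47314148-47314397): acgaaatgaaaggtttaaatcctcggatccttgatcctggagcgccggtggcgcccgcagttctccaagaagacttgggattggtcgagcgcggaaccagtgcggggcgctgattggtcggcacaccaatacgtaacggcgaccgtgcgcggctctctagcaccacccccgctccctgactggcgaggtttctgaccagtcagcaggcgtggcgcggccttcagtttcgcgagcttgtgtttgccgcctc

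The TAL1 window holds 1 AGATAA, on the opposite strand and so printed as TTATCT, which ends 30 bases before the start. Most of the strongest summits of the promoter site lay on or near it. Over the 21 libraries with a peak there, the strongest summit lay between -39.5 and 16.5 bp from the middle of the motif, with a median of -0.5 bp, and 15 of 21 lay within 25 bp. The others lay just inside the gene, -1 to -7 bp from the first start with upstream as positive. They were HA-GATA2 anti-HA replicates 2, 3 and 4, and with anti-GATA2 wild-type replicate 4, GATA2-low empty-vector replicate 2 and HA-GATA2(T354M) replicate 2. AGATAA on either strand was found in 9.18% of 34961 such windows of RefSeq genes, and 22.3% held this motif, the motif TGATAA, the motif AGATAG or the motif TGATAG. None of these 4 motifs is in the PDZK1IP1 or STIL window. The E-box pattern CANNTG, found in 61.8% of windows, occurs once in the TAL1 window and at 2 places in the PDZK1IP1 window, and not in the STIL window. A match describes these letters only, and sequences of the other sites were not analysed here.

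Wild-type libraries had a peak at 6, 5, 6 and 6 of the 6 sites (replicates 1 to 4; 5.75 ± 0.5, SD, n = 4). GATA2-low empty-vector libraries had 3, 2, 3 and 3 (2.75 ± 0.5). With HA-GATA2 the anti-GATA2 libraries had 6, 6, 5 and 6 (5.75 ± 0.5), and with HA-GATA2(T354M) 4, 3, 4 and 5 (4 ± 0.816). The wild-type and HA-GATA2 groups thus did not overlap the empty-vector group of GATA2-low cells, and HA-GATA2(T354M) libraries lay between them, touching both. As a share of all peaks the order was the reverse, with a mean of 0.0833% of peaks in the domain in wild-type, 0.140% in GATA2-low empty-vector, 0.0628% in HA-GATA2 and 0.110% in HA-GATA2(T354M) libraries. With every anti-GATA2 list cut to its 1823 strongest peaks, wild-type libraries had a mean of 2.25 sites and GATA2-low empty-vector libraries 2.5, so the separation was gone. With anti-HA the numbers were 4, 4, 4 and 3 for HA-GATA2, 1, 1, 2 and 1 for HA-GATA2(T354M) and 0 in each of the 4 empty-vector libraries.

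List length moves with these numbers, so 2 further measures are given for each site. The first is the percentile of its strongest peak within the library's own list, ranked by the authors' -log10 q (100 is the top). Because the lists differ in length, a percentile or rank places a site in its own list and is not read as a difference between groups. The second is the number of fragments at the summit, recovered as whole numbers from the authors' fold and -log10 p. The fragments were also divided by a relative depth. It is the ratio of a library's caller background to that of a reference library, constant at 56.8% to 94.5% of the summits they share, divided by the factor with which the caller had scaled the library down. In the 8 anti-GATA2 libraries with a tagged protein that ratio was 1 and the depth comes from the scaling factor alone (0.50 to 0.71, fitted from fold and -log10 p). In the 8 without a tagged protein the library's own scaling factor was 1 and the depth comes from the background ratio. Fragments per unit of depth thus rest on different quantities in these 2 sets of libraries. On this scale the depth was 0.681 to 0.899 in wild-type, 0.443 to 0.642 in GATA2-low empty-vector, 1.46 to 1.54 in HA-GATA2 and 1.42 to 2.0 in HA-GATA2(T354M) libraries. These fragment values are descriptions without a test. How many sites of the genome separate the groups in the same way was not counted. A separation below is therefore not read as particular to its site.

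By -log10 q and by fragments the +51 peak was the strongest of the domain in each of the 24 libraries with a peak there. By the authors' fold it was not. The -7 peak stood above it in the 4 HA-GATA2 anti-GATA2 libraries (33.2 to 37.9 against 26.1 to 32.5). The same held for HA-GATA2(T354M) anti-GATA2 replicates 2 and 4. With anti-GATA2 the promoter peak also stood above the +51 peak in HA-GATA2 replicates 2 and 3 and HA-GATA2(T354M) replicate 2. The +19 peak did so in HA-GATA2 anti-GATA2 replicates 3 and 4. The 24 libraries are all those outside the empty-vector anti-HA group, a pattern shared by 201 sites (1.16%), the TAL1 promoter not among them. The 24 strongest summits lay within 2 bp of each other (SD 0.295 bp). The merged site is 2623 bp wide, and 0.232% of sites are wider than 2000 bp.

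Within the lists, the +51 peak ranked 5 to 12 in wild-type libraries (percentile 99.9 ± 0.0382, n = 4) and 8 to 30 in GATA2-low empty-vector libraries (99.3 ± 0.635). It ranked 11 to 33 with HA-GATA2 (99.8 ± 0.0854) and 7 to 26 with HA-GATA2(T354M) (99.7 ± 0.382). In the anti-HA lists it ranked 3 to 13 for HA-GATA2 and 7 to 37 for the shorter HA-GATA2(T354M) lists (97.1 ± 1.65). Ranked by -log10 q, the site was therefore near the top of each list, whichever GATA2 the cells carried.

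Fragments at the +51 summit numbered 390, 412, 483 and 404 in wild-type libraries and 124, 142, 164 and 192 in GATA2-low empty-vector libraries. HA-GATA2 libraries had 494, 575, 618 and 540, and HA-GATA2(T354M) libraries 397, 350, 480 and 409. Per unit of relative depth the means were 529 ± 91.8 in wild-type, 314 ± 99.7 in GATA2-low empty-vector, 372 ± 35.9 in HA-GATA2 and 262 ± 61.7 in HA-GATA2(T354M) libraries (SD, n = 4 each). On this scale the wild-type values (442 to 622) lay above those of both groups with a tagged protein (339 to 422 and 175 to 318), and above the empty-vector values of GATA2-low cells (193 to 433). HA-GATA2 and HA-GATA2(T354M) libraries did not overlap, and both overlapped the GATA2-low empty-vector range.

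With anti-HA, the +51 summit had 183, 202, 254 and 123 fragments for HA-GATA2 and 69, 65, 66 and 85 for HA-GATA2(T354M). The 2 groups did not overlap, also per unit of relative depth (106.4 to 261 against 63.0 to 91.2; this scale is separate from the anti-GATA2 one). Peaks were narrower as well, 809 to 1880 bp wide for HA-GATA2 and 365 to 546 bp for HA-GATA2(T354M).

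The TAL1 promoter site had a peak in all 16 anti-GATA2 libraries. With anti-HA it was listed in 4 of 4 HA-GATA2 libraries and in 1 of 4 with HA-GATA2(T354M) (118 sites, 0.683%, had these numbers). Its rank was 356 to 675 in wild-type, 425 to 601 in the shorter GATA2-low empty-vector lists, 653 to 980 in HA-GATA2 and 436 to 628 in HA-GATA2(T354M) libraries. As mean percentiles these are 93.6 ± 1.89, 75.4 ± 9.4, 92.6 ± 1.94 and 88.9 ± 3.07 (n = 4 each). With anti-HA it was 72.1, 78.3, 78.3 and 29.9 for HA-GATA2, and the 1 HA-GATA2(T354M) library stood at 18.7. By rank the GATA2-low empty-vector libraries overlapped each of the other anti-GATA2 groups except HA-GATA2, whose ranks were larger numbers in longer lists.

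Promoter fragments numbered 109, 103, 133 and 95 in wild-type, 38, 33, 38 and 52 in GATA2-low empty-vector, 132, 183, 190 and 162 in HA-GATA2 and 107, 113, 117 and 115 in HA-GATA2(T354M) libraries. Relative to the +51 site of the same library the mean ratio was 0.260 ± 0.0211, 0.260 ± 0.0358, 0.298 ± 0.022 and 0.279 ± 0.033 in these groups and 0.248 ± 0.0267 in HA-GATA2 anti-HA libraries. Per unit of relative depth the promoter had 115 to 171 fragments in wild-type, 59.2 to 117 in GATA2-low empty-vector, 90.5 to 130 in HA-GATA2 and 56.5 to 81.2 in HA-GATA2(T354M) libraries. With anti-HA the promoter had 46, 56, 54 and 31 fragments for HA-GATA2 and 22 in HA-GATA2(T354M) replicate 3. With anti-GATA2 and per unit of depth, HA-GATA2 libraries lay above HA-GATA2(T354M) libraries without overlap. Wild-type and GATA2-low empty-vector ranges met at the ends, with 1 empty-vector library (replicate 4) above the lowest wild-type value.

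Beside the second TAL1 start a separate, weaker peak was listed in 7 libraries, its summit inside the gene, at -21 to -141 bp relative to that start with upstream as positive. These were wild-type replicates 1 and 4, GATA2-low empty-vector replicate 4, HA-GATA2 replicates 2 and 4 and HA-GATA2(T354M) replicates 1 and 2, all with anti-GATA2. It held 13 to 41 fragments, against 52 to 183 at the main summit of those libraries. In wild-type replicates 2 and 3 a single wide peak covered both starts.

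The -7 site was present in some groups and absent from others. It had a peak in 4 of 4 wild-type, 0 of 4 GATA2-low empty-vector, 4 of 4 HA-GATA2 and 4 of 4 HA-GATA2(T354M) anti-GATA2 libraries, and in 4 of 4 HA-GATA2 and 0 of 4 HA-GATA2(T354M) anti-HA libraries. This exact pattern was shared by 66 sites (0.382%). Its percentile was 50.6, 58.3, 61.9 and 61.3 in wild-type libraries, 89.0, 84.3, 85.7 and 87.1 with HA-GATA2 and 61.4, 61.5, 79.7 and 85.0 with HA-GATA2(T354M). By rank it stood at 2737 to 3480 in wild-type, 775 to 1744 in HA-GATA2 and 950 to 1793 in HA-GATA2(T354M) lists. HA-GATA2 values did not overlap wild-type values on either measure, in longer lists for 3 of 4. HA-GATA2(T354M) values overlapped HA-GATA2 by rank and both groups by percentile. Because the lists differ in length, neither measure is read as a difference between groups. In HA-GATA2 anti-HA lists the percentile was 24.8, 72.5, 72.3 and 32.3.

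**Figure D2:**
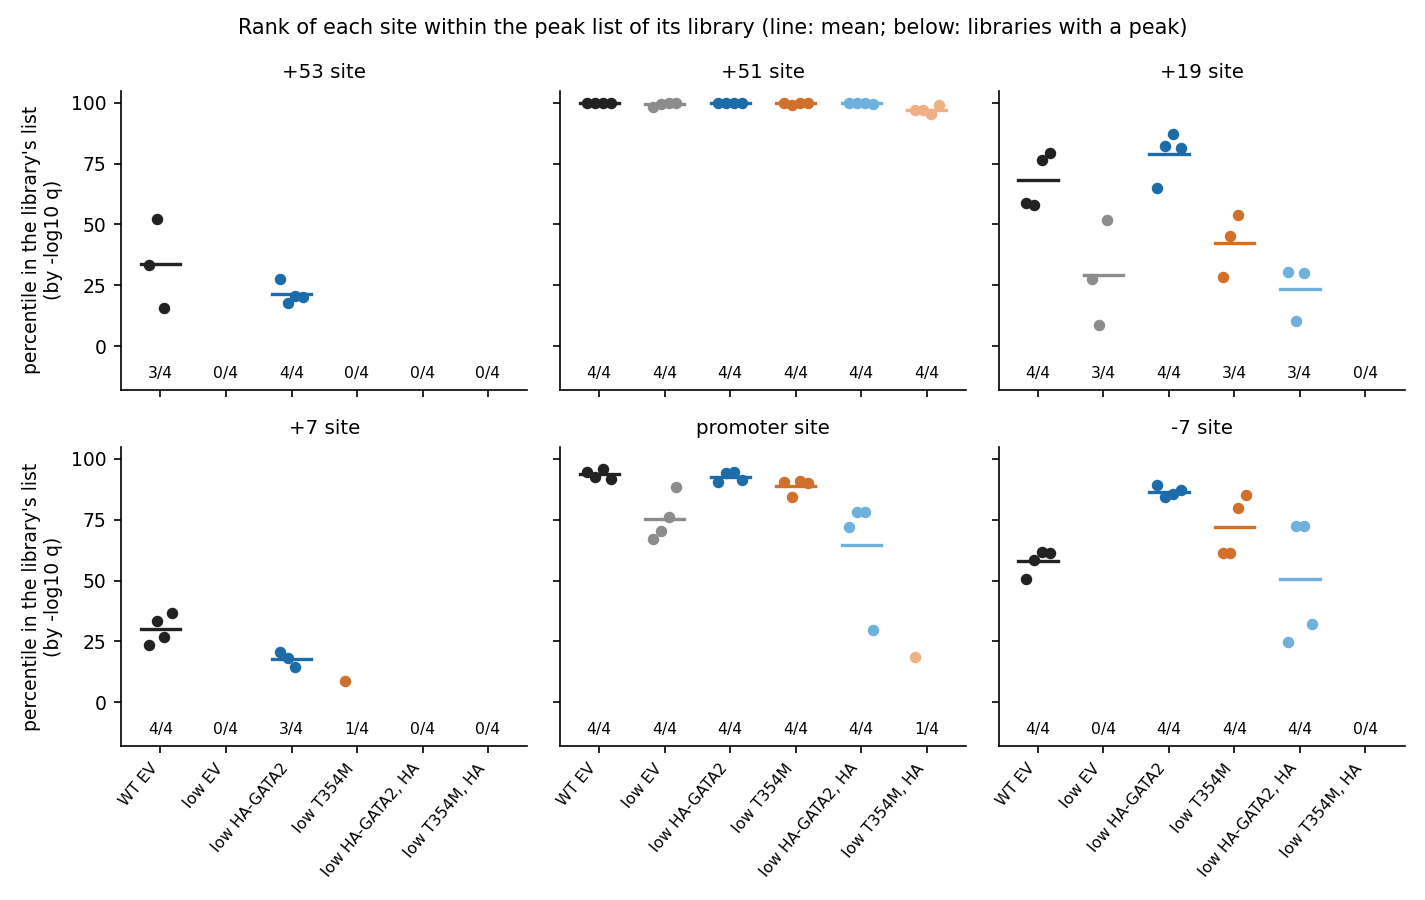
Percentile of the strongest peak of each of the 6 sites in its library's own list, ranked by -log10 q (vertical axis), for the 6 groups with peaks in the domain. Points are libraries, lines are means, and the fraction below gives libraries with a peak; WT is wild-type, low is GATA2-low, EV is empty vector, HA at the end marks anti-HA. The +51 site stays above 95 throughout. Because the lists differ in length, heights are not read as differences between groups.

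Fragments at the -7 summit numbered 21, 24, 25 and 25 in wild-type, 85, 83, 89 and 94 in HA-GATA2 and 36, 50, 56 and 64 in HA-GATA2(T354M) libraries. With anti-HA they were 19, 30, 36 and 22 for HA-GATA2. Per unit of relative depth the 3 anti-GATA2 groups had 29.8 ± 5.74, 58.6 ± 3.53 and 32.9 ± 10.1 (n = 4 each). HA-GATA2 libraries (53.8 to 61.7) lay above all wild-type (23.8 to 36.7) and all HA-GATA2(T354M) libraries (24.3 to 45.2). The +51 and promoter sites stood the other way, with the highest means in wild-type libraries. The share of all sites with either order was not counted.

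**Figure D3:**
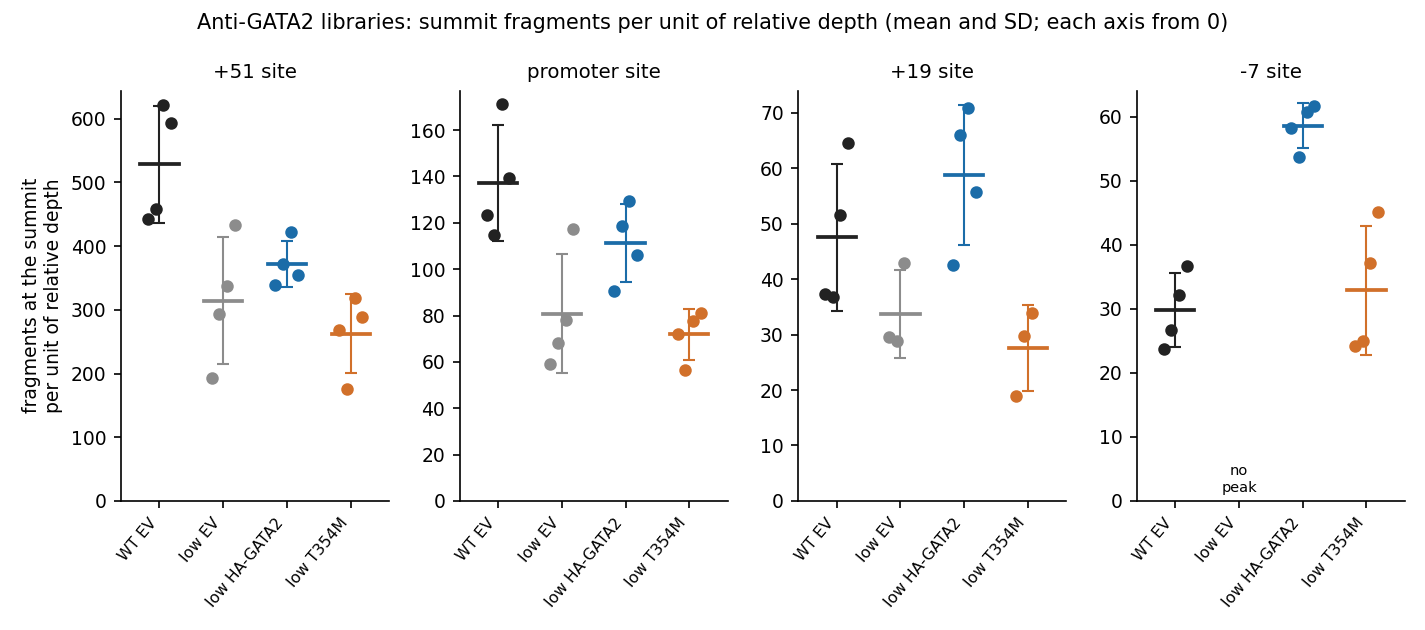
Fragments at the summit per unit of relative depth (vertical axis, from 0) at 4 sites of the domain in the 4 anti-GATA2 groups. Points are libraries with a peak, lines and bars the mean and SD. Wild-type libraries have the highest mean at the +51 (529) and promoter sites, HA-GATA2 libraries at the -7 site (58.6).

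The ratio of the -7 to the promoter site within a library needs no depth. It was 0.219 ± 0.0356 in wild-type (range 0.188 to 0.263), 0.537 ± 0.0912 in HA-GATA2 (0.454 to 0.644), 0.454 ± 0.0914 in HA-GATA2(T354M) (0.336 to 0.557) and 0.581 ± 0.134 in HA-GATA2 anti-HA libraries (0.413 to 0.710). None of the 12 libraries with a tagged protein and a -7 peak overlapped the wild-type range. The HA-GATA2(T354M) anti-HA libraries had no -7 peak (0 of 4) and so no ratio. The HA-GATA2 anti-HA libraries come from the same kind of cells as the HA-GATA2 anti-GATA2 ones and differ from wild-type also in the antibody. Relative to the +51 site the ratio was 0.0564 ± 0.00453 in wild-type, 0.159 ± 0.0167 in HA-GATA2 and 0.127 ± 0.0291 in HA-GATA2(T354M) libraries. This shift was noticed after the values were seen and has no test. By the authors' fold the -7 peak stood above the promoter peak in 0 of 4 wild-type, 4 of 4 HA-GATA2, 3 of 4 HA-GATA2(T354M) and 3 of 4 HA-GATA2 anti-HA libraries.

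**Figure D4:**
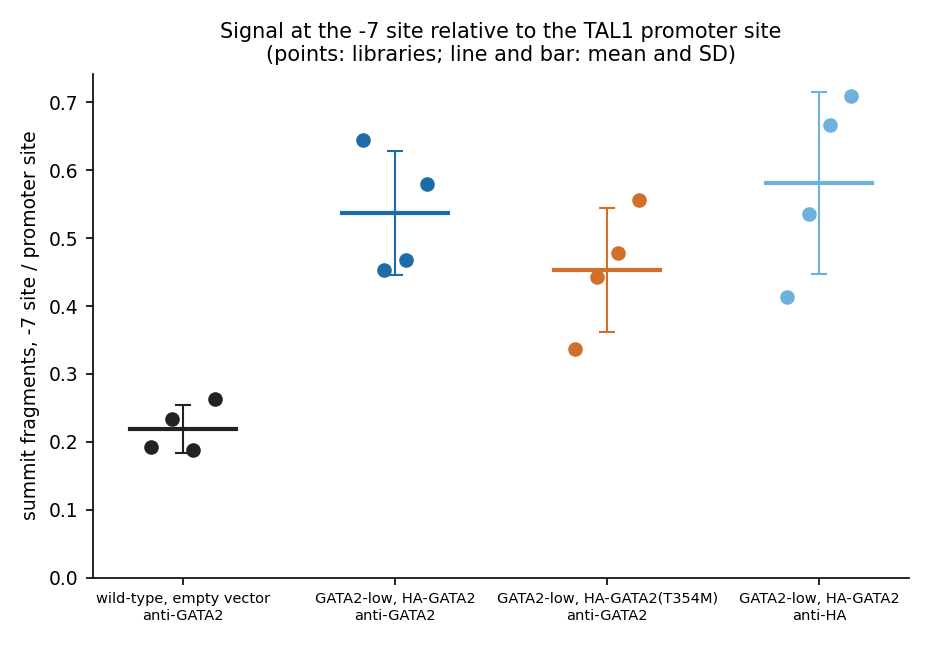
Fragments at the -7 summit divided by those at the promoter summit of the same library, for the 4 groups with a -7 peak. Points are libraries, lines and bars the mean and SD; the 4 wild-type libraries sit between 0.188 and 0.263, below all 12 others.

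The +19 site, just past the end of TAL1, had a peak in 4 of 4 wild-type, 3 of 4 GATA2-low empty-vector, 4 of 4 HA-GATA2 and 3 of 4 HA-GATA2(T354M) anti-GATA2 libraries. Anti-HA lists held it in 3 of 4 HA-GATA2 libraries and in 0 of 4 with HA-GATA2(T354M). Fragments numbered 33, 33, 40 and 44 in wild-type, 62, 102, 104 and 85 in HA-GATA2, 19, 14 and 19 in GATA2-low empty-vector (replicates 1, 3 and 4) and 28, 45 and 48 in HA-GATA2(T354M) libraries (replicates 1, 3 and 4). HA-GATA2 anti-HA replicates 1, 2 and 3 had 29, 25 and 24. Its percentile was 58.7, 58.2, 76.5 and 79.2 in wild-type, 64.9, 82.3, 87.2 and 81.2 in HA-GATA2, 27.5, 8.90 and 51.8 in GATA2-low empty-vector, 28.4, 45.1 and 54.0 in HA-GATA2(T354M) and 30.3, 10.5 and 30.2 in HA-GATA2 anti-HA libraries. Per unit of relative depth the wild-type (36.7 to 64.6) and HA-GATA2 ranges (42.5 to 70.9) overlapped, and HA-GATA2(T354M) libraries with a peak (18.9 to 33.9) lay below both. Replicate 2 of HA-GATA2(T354M), with no +19 peak, had the greatest relative depth of its group, 2.0, and the shortest list.

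The +7 site inside TAL1 had a peak in 4 of 4 wild-type, 0 of 4 GATA2-low empty-vector, 3 of 4 HA-GATA2 and 1 of 4 HA-GATA2(T354M) libraries, and in no anti-HA library. It was weak, with 15, 17, 15 and 17 fragments in wild-type libraries, 25, 25 and 24 in HA-GATA2 replicates 1, 2 and 4, and 19 in HA-GATA2(T354M) replicate 4. Its percentile was 23.7, 33.5, 26.9 and 36.6 in wild-type, 20.5, 18.4 and 14.4 in HA-GATA2 and 8.81 in that single HA-GATA2(T354M) library.

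The +53 site, at the LINC00853 start, was in the lists of 3 of 4 wild-type and 4 of 4 HA-GATA2 anti-GATA2 libraries and in no other list. Fragments numbered 23, 24 and 14 in wild-type replicates 1, 3 and 4 and 32, 34, 29 and 30 with HA-GATA2. The percentile was 33.4, 52.1 and 15.6 in those wild-type libraries and 27.7, 17.6, 20.7 and 20.1 with HA-GATA2. Summits were less fixed than at the +51 site 561 bp away, spreading over 376 bp.

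The first comparison, wild-type against GATA2-low cells with empty vector, set the full GATA2 level against a lowered one. Fisher's exact test (two-sided, libraries with and without a peak) with Benjamini-Hochberg adjustment called 2 of the 6 sites, the -7 and +7 sites, each with a peak in 4 of 4 against 0 of 4 libraries (p = 0.0286, adjusted p = 0.0338). Across the genome 13.7% of sites with a peak in either group were called so, and 0.0179% the other way. A count of 2 among 6 sites sets nothing of the domain apart from that share. The +53 site stood at 3 against 0 (exact p = 0.143), the +19 site at 4 against 3, and the +51 and promoter sites at 4 against 4. The adjustment covered the sites that are in 4 of the 8 lists, since no other site can pass. Every 4 against 0 site has the same adjusted p, so a call rests on how many sites of the genome split that way. Adjusted over every site with a peak, Fisher's exact test gave an adjusted p of 0.209 and called 0 sites, and in each comparison below this wider adjustment also called 0.

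The empty-vector libraries of GATA2-low cells had the lowest relative depths, and the part of depth in these calls was not tested. At the wild-type mean per unit of depth the +7 site would have had 8.88 to 12.9 fragments in GATA2-low empty-vector libraries, where the smallest listed peak had 6 to 7 fragments and the weakest 5% of peaks reached up to 10 or 11. The -7 site would have had 13.2 to 19.2 fragments. The value for the +7 site thus overlapped the weakest 5% of listed peaks, above the smallest of them, and that for the -7 site lay above the weakest 5%. Both values take the wild-type level as given. The +51 and promoter sites, which these libraries did list, themselves had lower means per unit of depth. The means were 314 and 80.7, against 529 and 137 in wild-type libraries. A -7 site lowered in step with them would have had fewer fragments, which was not tested. With lists of equal length (1823 peaks) 0 sites were called in the domain and 0 in the genome, the -7 peak ranking 2737 to 3480 in wild-type lists. Without wild-type replicate 3, or without GATA2-low empty-vector replicate 1, 2 or 3, 0 sites were called in the domain and 0 in the genome. In these runs the -7 and +7 sites still had a peak in every wild-type library left and in no empty-vector library. The loss of the call is thus not particular to them.

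HA-GATA2 against empty vector in GATA2-low cells set the tagged protein against none. Fisher's exact test called the -7 and +53 sites (4 of 4 against 0 of 4, p = 0.0286, adjusted p = 0.0311), against 23.8% of sites called in this direction across the genome. The +7 site stood at 3 against 0 (exact p = 0.143). This comparison and the first share the empty-vector libraries, so their common -7 call is not independent. With lists of equal length 1 site, the -7 site, was still called. With peaks of -log10 q of 15 or more the -7 site was still called and the +53 site was not. Without empty-vector replicate 1, 2 or 3, 0 were called, in the domain as in the whole genome. HA-GATA2 and wild-type libraries differed at 0 of the 6 sites by Fisher's exact test (0 at an unadjusted p under 0.05; 7.94% of sites were called higher with HA-GATA2 and 1.2% higher in wild-type).

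HA-GATA2(T354M) was set against empty vector in the same way. The -7 site again stood at 4 of 4 against 0 of 4 (exact p = 0.0286), but its adjusted p was 0.0575 by Fisher's exact test and no site was called. The site was called with lists of equal length (Fisher's exact adjusted p = 0.0439) and with peaks of -log10 q of 15 or more (0.0490). In this comparison 5.87% of sites split that way, 0.0394% split the opposite way and 0% were called. Against wild-type, Fisher's exact test called HA-GATA2(T354M) at 0 sites (0 at an unadjusted p under 0.05), though with lists of equal length the +19 site was called lower (Fisher's exact adjusted p = 0.0499). The +53 site stood at 0 against 3 and the +7 site at 1 against 4 (exact p = 0.143 each), while 4.03% of sites split 0 against 4 and 0.446% split 4 against 0.

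HA-GATA2 was set against HA-GATA2(T354M) directly, at matched antibody and cell type. With anti-GATA2, Fisher's exact test called the +53 site (4 of 4 against 0 of 4, adjusted p = 0.0390), against 10.2% of sites called higher with HA-GATA2 and 0.0344% higher with HA-GATA2(T354M). The +7 site stood at 3 against 1 (exact p = 0.486). The relative depths of the groups overlapped. At the HA-GATA2 mean per unit of depth the +53 site would have had 29.6 to 41.7 fragments in the HA-GATA2(T354M) libraries. Their smallest peaks had 12 to 17, and the weakest 5% reached up to 18 to 26. The value takes the HA-GATA2 level as given. The +51 and promoter sites had lower means per unit of depth with HA-GATA2(T354M), 262 and 71.8 against 372 and 111. Without HA-GATA2 replicate 2, 3 or 4, or any HA-GATA2(T354M) replicate, 0 sites were called, in the domain as in the whole genome. With lists of equal length (2779 peaks) the +53 site was not called, and the +19 site was, at 4 of 4 against 0 of 4 (Fisher's exact adjusted p = 0.0430).

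With anti-HA, HA-GATA2 was called over empty vector at the +51, promoter and -7 sites (4 of 4 against 0 of 4, Fisher's exact adjusted p = 0.0286; 25.3% of sites). The empty-vector lists hold 1 to 6 peaks, so this comparison calls nearly any site in 4 of 4 HA-GATA2 libraries (1753 of 1755) and adds nothing to their presence there. HA-GATA2(T354M) was called over empty vector at the +51 site (Fisher's exact adjusted p = 0.0286; 22.3%), for which the same holds. Directly compared, HA-GATA2 was called over HA-GATA2(T354M) at the -7 site (4 against 0, Fisher's exact adjusted p = 0.0321; 13.6%). That call was lost with lists of equal length (426 peaks, 0 sites called) and with peaks of -log10 q of 15 or more (2 against 0); the full lists held 1912 to 6065 and 426 to 744 peaks. The promoter stood at 4 against 1 and the +19 site at 3 against 0 (exact p = 0.143 each). At the HA-GATA2 mean per unit of depth, HA-GATA2(T354M) anti-HA libraries would have had 23.3 to 28.2 fragments at the -7 site and 40.8 to 49.5 at the promoter, where their smallest peaks had 9 to 10. The -7 site thus had HA-GATA2(T354M) peaks with anti-GATA2 in 4 of 4 libraries but with anti-HA in 0 of 4, and these 2 antibodies were not tested against each other. Without any 1 empty-vector replicate 0 sites were called for HA-GATA2 over empty vector, in the domain as in the whole genome. In the direct comparison 0 were called without any 1 HA-GATA2(T354M) replicate, and 2 without HA-GATA2 replicate 4.

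Among the genes flanking the domain, none of 8 (CYP4B1, CYP4A11, CYP4X1, CYP4Z1, CYP4A22, CMPK1, FOXE3 and FOXD2) had a summit in its body or within 20 kb in any library. Of all 19974 protein-coding genes 9827 had a site within that distance, so many other genes had none either. TAL1 had 4 sites within that distance, STIL and PDZK1IP1 2 each, the 2 of STIL being the TAL1 promoter and -7 sites. As many sites as TAL1 were found at 1549 of 19974 protein-coding genes (7.76%).

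The protein complex around TAL1 was followed through 22 genes, scored by a summit in the body or within 20 kb. In wild-type libraries 17.2 ± 1.89 of them had a peak, in GATA2-low empty-vector libraries 11.2 ± 1.26, with HA-GATA2 17.5 ± 0.577 and with HA-GATA2(T354M) 15 ± 2.45 (n = 4 each). Means over all 19974 protein-coding genes were 6145, 2205, 6394 and 3995. TAL1 itself, its relative LYL1, its partners TCF3 and LMO2, the GATA factors GATA1 and GATA2, the GATA cofactor ZFPM1, the corepressor CBFA2T3, RUNX1 and GFI1B had a peak in all 16 anti-GATA2 libraries. How many of all genes had a peak in all 16 was not counted. In 4 of 4 GATA2-low empty-vector libraries 10 of the 22 genes and 1304 of the 19974 had one. The 22 were chosen with earlier results of these data known.

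Between wild-type and GATA2-low empty-vector libraries, 2 of the 20 listed genes with a peak split 4 against 0, against 15.8% of all such genes (0.0243% the other way): the E protein gene TCF4 and the adaptor LDB1. The E protein gene TCF12 and the deacetylase HDAC2 stood at 4 against 1. With HA-GATA2 over empty vector 4 of 18 split 4 against 0 (23.1% of all genes with a peak in either group), TCF4 and LDB1 with the corepressor genes CBFA2T2 and RCOR1, and TCF12 and HDAC2 again stood at 4 against 1. With HA-GATA2(T354M) 0 of 18 did (4.26% of genes with a peak), TCF4 and LDB1 standing at 2 against 0 and TCF12 at 4 against 1. With anti-HA, 10 of 15 listed genes split 4 against 0 between HA-GATA2 and empty vector (29.6% of genes with a peak) and 4 of 10 for HA-GATA2(T354M) (24.2%). The 10 were TAL1, LYL1, TCF12, LMO2, GATA1, GATA2, ZFPM1, CBFA2T3, RUNX1 and GFI1B, and the 4 were LYL1, GATA2, ZFPM1 and GFI1B. The empty-vector anti-HA lists hold 1 to 6 peaks and none at the 22 genes. These splits therefore only restate presence in 4 of 4 libraries with the tagged protein. Between the 2 tagged proteins LMO2 split 4 against 0 (13.8% of genes with a peak did), and TAL1, GATA1 and CBFA2T3 stood at 4 against 1.

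Of 15 erythroid genes, 9.75 ± 0.5 had a peak in wild-type, 8.25 ± 1.26 in GATA2-low empty-vector, 12.5 ± 0.577 in HA-GATA2 and 8.5 ± 0.577 in HA-GATA2(T354M) libraries. The globin genes HBB, HBG1 and HBG2 had a peak in 4 of 4 HA-GATA2 anti-GATA2 libraries and in 0 of the other 12, with 2 of 4 in HA-GATA2 anti-HA libraries, and lie in 1 cluster. Of all genes with a peak in either group, 23.1% split 4 against 0 for HA-GATA2 over empty vector, 7.97% over HA-GATA2(T354M) and 4.56% over wild-type. EPOR, the erythropoietin receptor gene, had a peak in 4 of 4 wild-type, 1 of 4 GATA2-low empty-vector, 2 of 4 HA-GATA2 and 0 of 4 HA-GATA2(T354M) libraries (3.79% of genes split 4 against 0 for wild-type over HA-GATA2(T354M)). With anti-HA, GATA1, the factor gene KLF1, the heme enzyme gene ALAS2, the glycophorin gene GYPB and the membrane protein gene EPB42 split 4 against 0 for HA-GATA2 over empty vector, and EPB42 also for HA-GATA2(T354M). The short empty-vector anti-HA lists hold none of the 15 genes, so these splits only restate presence in 4 of 4 libraries. KLF1 and GYPB split 4 against 0 between the tagged proteins, GATA1 and ALAS2 4 against 1. HBA1 and HBA2 had none. Of 12 genes of other blood lineages, 4.25 ± 0.957, 1 ± 1.41, 3.5 ± 0.577 and 1.25 ± 0.957 had a peak in the same groups. The B cell receptor gene CD79A stood at 4, 0, 3 and 3 libraries and CSF1R, a receptor gene of macrophages, at 4, 1, 4 and 1.

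Genes with a pattern most like TAL1 were those with the smallest summed difference in the number of sites over the 24 libraries, among 19946 genes. They were TLCD5 and ABHD5 (summed difference 8 each), the water channel gene AQP1 and ZSWIM5 (9 each), and CPOX (10), an enzyme of heme synthesis. In all 8 genes had a summed difference of 10 or less, and CPOX was taken from those tied at 10 because its peaks had the highest mean percentile. TAL1 had a mean of 4 sites in wild-type, 1.75 in GATA2-low empty-vector, 3.75 in HA-GATA2 and 3 in HA-GATA2(T354M) anti-GATA2 libraries, and ABHD5 had 4, 1.75, 4 and 3. CPOX had 4, 2.75, 4 and 3.5.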

How the data were processed

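CUT&Tag peaks of GATA2 and HA-tagged GATA2 in HUDEP-2 cells were analysed as the authors deposited them, 1 narrowPeak list of 10 columns per library. The submitters' processing notes name MACS2 2.2.7.1, Bowtie2 2.2.5, cutadapt 3.3, deepTools 3.5.3, FastQC and build hg38; the sources used here give no settings and no control. The deposited fold enrichment is a linear ratio of summit to local background, the deposited p and q are -log10 values, and the deposited score follows -log10 q. These are the authors' values per peak and were used to rank peaks within a list and to recover fragments.

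Of 120964 peaks, 455 outside chromosomes 1 to 22 and X were left out. The other 120509 were merged by overlap into 17277 sites, and a site counts for a library with at least 1 overlapping peak. Groups followed the titles, also for the 1 library whose genotype label differs. Presence was compared in 9 pairs of groups with Fisher's exact test (two-sided, 4 against 4, smallest p 0.0286) and Benjamini-Hochberg adjustment over sites with a peak in 4 of the 8 libraries; values under 0.05 were called.

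Whole fragments matched the deposited fold and -log10 p within 0.03% at 100% of peaks, after finding the caller's scaling of the HA-GATA2 and HA-GATA2(T354M) anti-GATA2 libraries. Read totals are unknown. The relative depth, added after the data were seen, assumes that libraries with 1 antibody were called against the same background; it rests on that scaling in anti-GATA2 libraries with a tagged protein and on background ratios in the others. Where it predicts fragments at another group's level, counting error comes on top. Such a value also ignores that other sites of the domain had lower means per unit of depth in the group it is applied to. Intervals of single counts are not given.

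All sites of the domain are reported, with every library's fragments for those found in at least 3 of 4 libraries of a group. Listed genes are named where they split 4 against 0 or 1 (some are not reported here), and up to 5 genes most like TAL1 at least 1 Mb away. The members and lists were chosen with earlier results of these data known. Gene positions and sequences came from RefSeq tables of GRCh38.p14. Alternatives covered the adjustment, -log10 q, list length, peak width, window, ranking by fold, replicates left out and replicate blocks. Scripts used Python 3.11.15, numpy 2.4.6, scipy 1.17.1 and matplotlib 3.10.9 and were tested on simulated data.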

Additional observations from a re-analysis of the deposited data

Results flagged for a closer look

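In 8 of 37 groups of 4 libraries looked at, 1 library stood apart from the other 3 by Dixon's criterion; chance flags about 1 in 20. For the number of domain sites with a peak, the lowest wild-type library had 5, the lowest GATA2-low empty-vector library 2, the lowest HA-GATA2 anti-GATA2 library 5 and the lowest HA-GATA2 anti-HA library 3, while the highest HA-GATA2(T354M) anti-HA library had 2. Each of these differs by 1 site from 3 equal libraries, which any such count would flag.

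At the +51 site the lowest HA-GATA2(T354M) anti-GATA2 library had a percentile of 99.1, and at the promoter the lowest had 84.3. Both are replicate 2, which had the shortest list of its group and the greatest relative depth. At the promoter the lowest HA-GATA2 anti-HA library, replicate 4, had a percentile of 29.9; it also had the shortest list of its group (1912 peaks).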

How the results depend on the processing

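Calls depended on the processing more than the presence of peaks did. Sites called in wild-type against GATA2-low empty-vector libraries fell from 2 to 0 when adjusted over every site, 1 when -log10 q had to reach 15, 0 with lists of equal length and 0 with a replicate block, and ranged from 0 to 3 without single libraries. For HA-GATA2 against empty vector the 2 became 0, 1, 1 and 0 under these settings (0 to 3 without single libraries). For HA-GATA2(T354M) against empty vector the 0 became 1, the -7 site, with equal lists and when -log10 q had to reach 15. For HA-GATA2 against HA-GATA2(T354M) the 1 became 0 when adjusted over every site, 0 when -log10 q had to reach 15 and 0 in the block fit (0 to 1 without single libraries); with equal lists it stayed 1, but the +19 site took the place of the +53 site. HA-GATA2(T354M) against wild-type went from 0 to 1, the +19 site, with equal lists. With anti-HA, HA-GATA2 against empty vector went from 3 to 0 over every site, 1 when -log10 q had to reach 15 and 0 in the block fit (0 to 4 without single libraries). HA-GATA2(T354M) against empty vector went from 1 to 0 over every site and with the block. HA-GATA2 against HA-GATA2(T354M) went from 1 to 0 when adjusted over every site, when -log10 q had to reach 15, with equal lists and with the block (0 to 2 without single libraries).

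The block cannot give a p under 0.125, and replicate numbers did not pair the libraries: of 36 same-numbered pairs 1 correlated over 0.1 (range -0.106 to 0.117), and 10 correlated best with their own number. Calls ended without wild-type replicate 3 or GATA2-low empty-vector replicate 1, 2 or 3; for HA-GATA2 against HA-GATA2(T354M) with anti-GATA2 without HA-GATA2 replicate 2, 3 or 4 or any HA-GATA2(T354M) replicate; and with anti-HA without any empty-vector replicate (HA-GATA2 against empty vector) or any HA-GATA2(T354M) replicate, while 2 sites were called without HA-GATA2 replicate 4. With 1 library left out the smallest p of Fisher's exact test stays the same, while the number of sites able to pass changes. In the anti-GATA2 runs in which calls ended, and in those without an anti-HA empty-vector replicate, 0 sites of the whole genome were called. The loss there covers every site and not only those of the domain.

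Sites with a peak per library fell from 5.75 to 5 in wild-type and 4.25 in HA-GATA2 libraries with -log10 q of at least 15, and to 2.25 and 3.25 in lists of equal length, where GATA2-low empty-vector libraries had 2.5 (2.75 before), so wild-type no longer stood above them. For HA-GATA2(T354M) the mean of 4 became 5 with peaks trimmed to 100 bp, which split the 6 sites into 9, and 3 with equal lists. For HA-GATA2 anti-HA libraries 3.75 became 2.25 and 1. The difference in the share of libraries turned to -0.25 in 4 cases, all of them uncalled: at the +19 site for wild-type and for HA-GATA2 against empty vector with equal lists, and at the +53 site for HA-GATA2 against wild-type under equal lists and under the stricter -log10 q; the cause was not tested. Ranked by fold, 14 of 24 mean percentiles moved by more than 1 SD, the +51 site by -25.2 points in HA-GATA2(T354M) anti-HA libraries. Read totals are unknown, and what depth could hide at weak sites was not tested.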

Other observations

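The background that the caller had used at the +51 summit was higher than at the promoter. It was 3 to 4 times that value in all 16 anti-GATA2 libraries, and 1.6 to 2.0 times in the 5 anti-HA libraries with both peaks. In the 8 anti-GATA2 libraries with a tagged protein it was 12 fragments at the +51 site in each library. Ranked by fold, which divides by this background, the +51 site had a mean percentile of 95.0 in wild-type and 71.9 in HA-GATA2(T354M) anti-HA libraries, against 99.9 and 97.1 by -log10 q.

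Peak edges recurred between libraries. Of the 28 peaks of the promoter site 8 began at the same base, 47232211, and of the 16 peaks of the -7 site 5 began at 47239088.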
